A study of Oryctolagus cuniculus with 3 samples.

Results

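Genes of sterol and fatty acid synthesis, together with the SREBP factors that control them, were followed in the aortic media of rabbits fed cholesterol. The set held 33 gene names, matched to the symbols of the deposited gene table. Of these, 28 names matched 1 rabbit gene each, out of 15248 rabbit genes in the table. All 28 passed the filter on low values (mean FPKM of 1 or more across libraries, reached by 11597 genes), and all 28 were at or above 1 FPKM in every library. CYP51 is another name of CYP51A1, and FDPS, MVD, DHCR7 and SCD, for which no symbol matched, are not analysed here.

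The RNA came from the media, the smooth muscle layer of the aorta, of male JW/CSK rabbits 9 months old. The transgenic cholesterol library came from rabbits carrying the mouse PGC1-alpha gene and kept on a high cholesterol diet for 20 weeks. The non-transgenic cholesterol library came from control rabbits on that diet for the same time, and the chow library from control rabbits on chow. Each library pooled the RNA of 5 rabbits, so there was 1 library per group, and no difference below has a test, an error or a replicate check. The labels do not name the promoter that drives the transgene or the tissues that carry it. By their labels, the cholesterol libraries shared a sequencing lane that the chow library was not on, so lane and diet cannot be told apart.

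Cells make cholesterol from acetyl-CoA through mevalonate, isoprenoid diphosphates, squalene and lanosterol. The transcription factor SREBP-2 (gene SREBF2) drives these enzymes, while SREBP-1 (SREBF1) acts more on fatty acid synthesis. Both factors are held in the endoplasmic reticulum by SCAP and the INSIG proteins when membranes are rich in sterol, and are cut free when sterol is scarce. SREBF1 is also a target of LXR, the receptor that senses oxysterols in cholesterol-loaded cells such as foam cells.

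Values are FPKM (fragments per kilobase of gene, relative to the mapped total of the library), as the authors deposited them. Because FPKM is taken per length, levels of different genes can be set side by side. Differences are in log2(FPKM + 1) between libraries, so that 1 stands for a 2-fold difference on this scale, and low genes are understated. The mouse Ppargc1a row was at 12.8 FPKM in the transgenic library and listed at 0 in both others, as their labels have it. The number of reads per library is unknown. Between libraries, the lowest values stood in ratios of small whole numbers, which puts the fragment total of the transgenic library at 1.25 times, and of the non-transgenic cholesterol library at 1.29 times, that of chow. At those constants, 66.9% and 68.6% of the low genes lay within 1% of such a ratio, against 7.20% and 7.27% on average over other constants.

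The 28 genes were expressed at the middle of the range of the tissue. Their FPKM ran from 1.81 (ELOVL6) to 37.6 (ACLY) in the transgenic cholesterol library, from 2.33 (HSD17B7) to 50.5 (FASN) in the non-transgenic cholesterol library, and from 2.44 (HSD17B7) to 66.5 (FDFT1) on chow. Their median FPKM was 14.5, 14.7 and 15.2 in the transgenic cholesterol, the non-transgenic cholesterol and the chow library, against 13.3, 13.4 and 12.1 FPKM over all genes that passed the filter. The highest gene was a different one in each library.

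**Figure D1:**
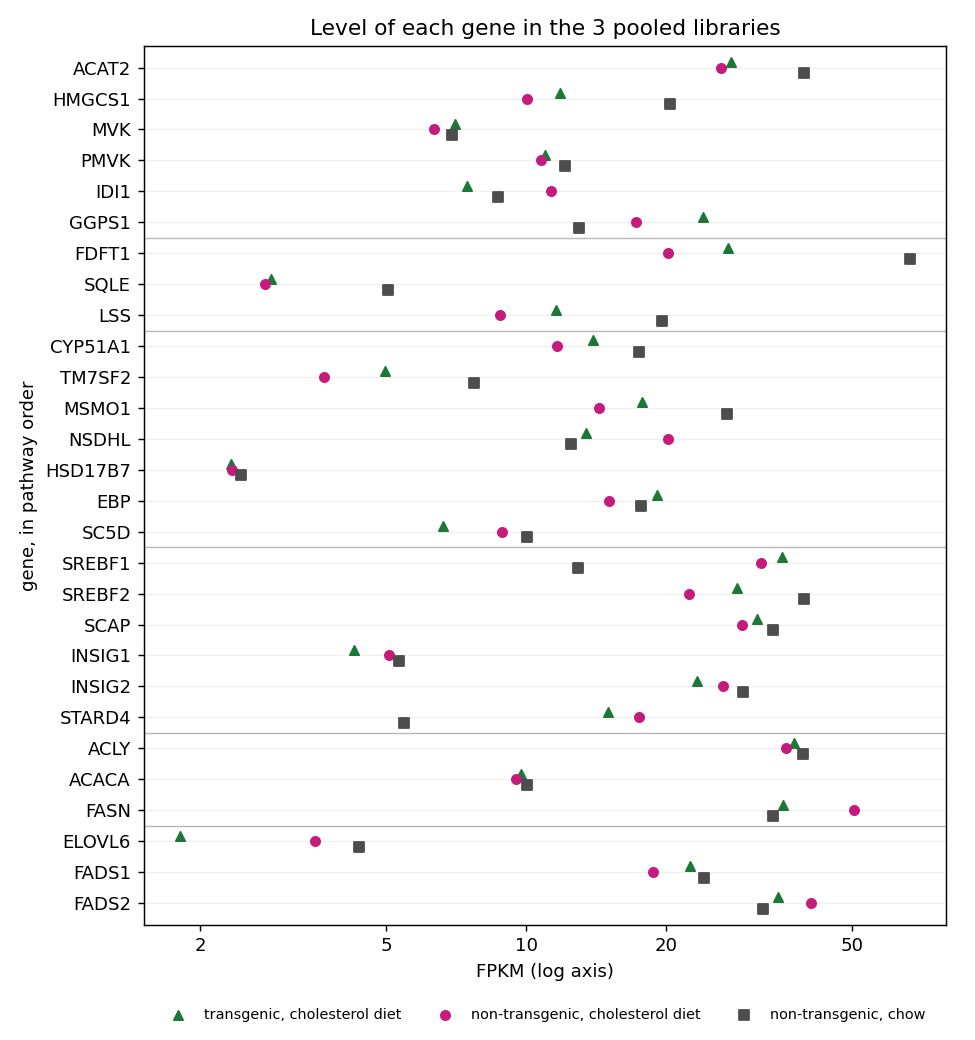
FPKM of each of the 28 genes (log axis) in the transgenic cholesterol, the non-transgenic cholesterol and the chow library, 1 pooled library per symbol, with the genes in pathway order and grey lines between groups of genes. FDFT1 has the widest gap, with the transgenic and the non-transgenic cholesterol library at 27.1 and 20.1 FPKM and chow at 66.5 FPKM, while SREBF1 and STARD4 have chow as the lowest symbol.

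On the cholesterol diet, the enzymes that make squalene and lanosterol were lower in non-transgenic rabbits, SREBF2 was lower, and SREBF1 and the sterol carrier STARD4 were higher. Of the 28 genes, 2 were at least 2-fold lower than on chow (FDFT1 and LSS), where 6.99% of all genes tested were, and 2 were at least 2-fold higher (SREBF1 and STARD4), where 15.9% of all genes were. These shares are near or below those of all genes. Below 0 stood 21 of the 28, against 48.7% of all genes, and the median of the 28 differences was -0.16, against 0.02 over all genes. The direction of that median depends on scaling. With the libraries rescaled to an equal total without the genes encoded in mitochondrial DNA, the median of all genes moved to 0.19, that of the 28 genes to 0.01, and 13 of the 28 stood below 0. Relative to the median of all genes, the median of the 28 was -0.18 both as deposited and after that rescaling.

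**Figure D2:**
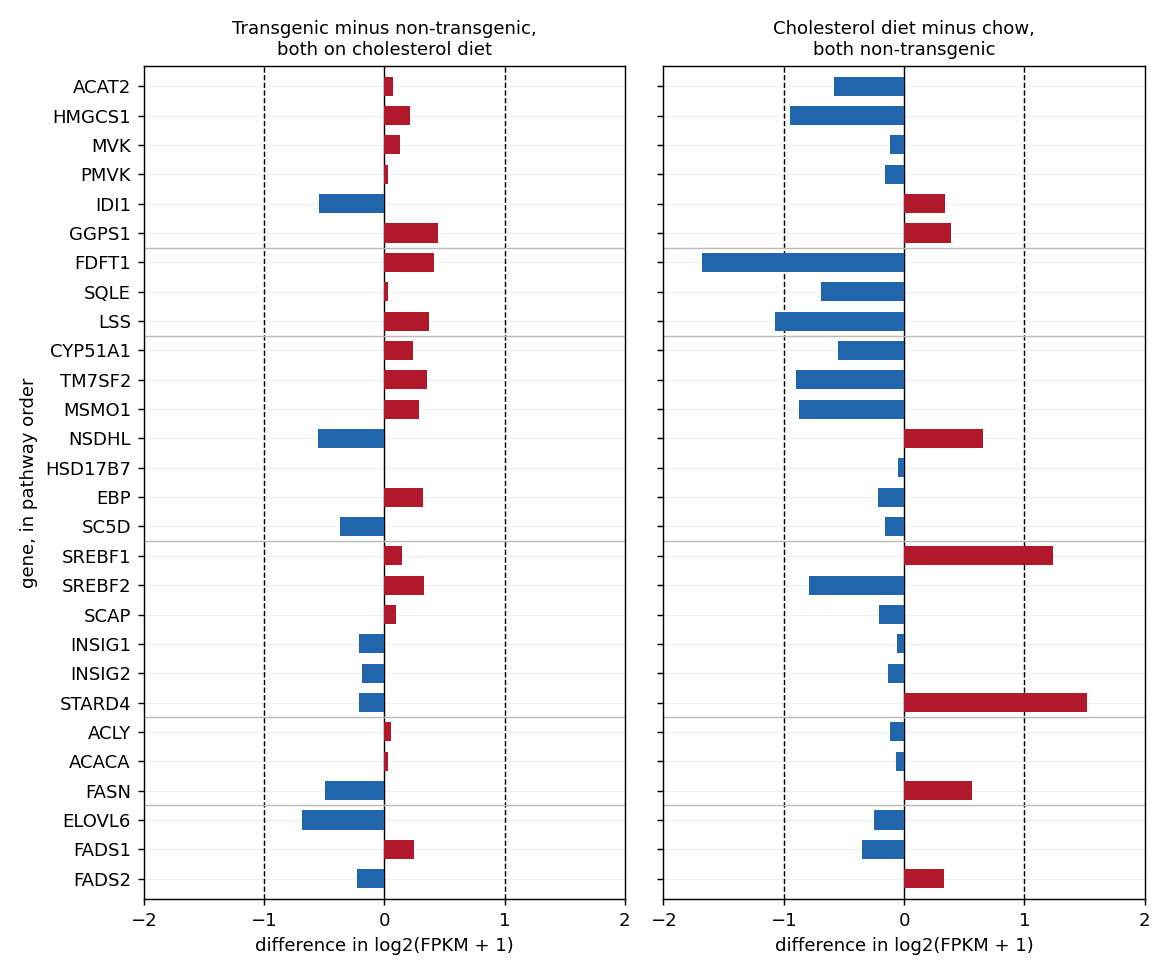
Difference in log2(FPKM + 1) of each gene, transgenic minus non-transgenic on the cholesterol diet (left) and cholesterol diet minus chow in non-transgenic rabbits (right), with dashed lines at 2-fold and grey lines between groups of genes. In the diet panel FDFT1 (-1.68) and LSS (-1.07) pass the lower line and STARD4 (1.52) and SREBF1 (1.24) the upper one, and in the genotype panel no bar reaches a line.

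Among the 28 genes, FDFT1 and LSS, of the steps that make squalene and lanosterol, had the lowest diet differences. FDFT1, squalene synthase (ENSOCUG00000005160, OryCun2.0 chromosome 2, 38157013 to 38191065), which joins farnesyl diphosphates into squalene, stood at 27.1 FPKM in the transgenic cholesterol library, 20.1 in the non-transgenic cholesterol library, against 66.5 on chow. It was the highest of the 28 genes on chow. Its diet difference was -1.68, a ratio of 0.302 on plain FPKM, and 1.40% of all genes tested had a lower difference.

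LSS, lanosterol synthase, which closes the sterol rings (ENSOCUG00000001938, chromosome 14, 163767705 to 163797668), had 11.6, 8.77 and 19.6 FPKM in the transgenic cholesterol, the non-transgenic cholesterol and the chow library. Chow was again the highest, and the diet difference was -1.07. With a pseudocount of 5 in place of 1 it was -0.84, under 2-fold. SQLE, squalene epoxidase, which adds the oxygen between these steps (ENSOCUG00000015771, chromosome 3, 140711228 to 140736715), was among the lowest of the set, at 2.83, 2.75 and 5.06 FPKM in the same order of libraries. Its difference of -0.69 was under 2-fold. Summed over FDFT1, SQLE and LSS, the level was 41.5 FPKM in the transgenic cholesterol library and 31.6 in the non-transgenic cholesterol library, against 91.1 on chow. FDFT1 alone holds most of this gap.

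The mevalonate steps before them were less uniform. HMGCS1, which makes HMG-CoA at the entry to the pathway (ENSOCUG00000003569, chromosome 11, 64084902 to 64098752), stood at 11.8 FPKM in the transgenic cholesterol library, 10.04 in the non-transgenic cholesterol library, against 20.3 on chow. Its diet difference of -0.95 fell just short of 2-fold with the pseudocount, and its plain ratio was 0.494. ACAT2, the cytosolic thiolase that makes acetoacetyl-CoA, stood at 27.6, 26.1 and 39.5 FPKM in the same order, with a diet difference of -0.58. The 2 mevalonate kinases of the set were close in all libraries. MVK, which phosphorylates mevalonate, stood at 7.03, 6.33 and 6.93 FPKM (diet difference -0.11), and PMVK, which adds the next phosphate, at 11.0, 10.8 and 12.1 FPKM (-0.16).

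IDI1 and GGPS1 were slightly higher on the diet, each by less than 1.5-fold. IDI1, the isomerase of isopentenyl diphosphate, stood at 7.45, 11.3 and 8.71 FPKM in the transgenic cholesterol, the non-transgenic cholesterol and the chow library, a diet difference of 0.34. GGPS1, which makes geranylgeranyl diphosphate for protein prenylation and so leads away from sterol (ENSOCUG00000013581, chromosome 16, 32912023 to 32919685), stood at 23.9, 17.2 and 13.0 FPKM. It was lowest on chow and highest in the transgenic library, with a diet difference of 0.39. Within a library, FDFT1 stood at 1.13 times GGPS1 in the transgenic cholesterol library and 1.17 times in the non-transgenic cholesterol library, against 5.13 times on chow.

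Among the enzymes that turn lanosterol into cholesterol, CYP51A1, TM7SF2 and MSMO1 of the early steps were lower on the diet. Most later ones differed little. CYP51A1, the lanosterol demethylase (chromosome 10, 36634694 to 36654515), stood at 13.9 FPKM in the transgenic cholesterol library, 11.6 in the non-transgenic cholesterol library, against 17.5 on chow (diet difference -0.55). TM7SF2, a sterol reductase of the next step, stood at 4.98, 3.68 and 7.74 FPKM (-0.90, a plain ratio of 0.476). MSMO1, which oxidises methyl groups on the sterol ring, stood at 17.7, 14.3 and 26.9 FPKM (-0.87). All 3 had chow highest and the non-transgenic cholesterol library lowest. The span of TM7SF2 overlaps that of VPS51 in the annotation, and with any use of strand in the counting not given in the sources used here, reads in the overlap cannot be told apart.

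NSDHL, the dehydrogenase that works next to MSMO1 (scaffold GL018731, 43465 to 69266), differed from its neighbours in the pathway. It stood at 13.5 FPKM in the transgenic cholesterol library, 20.2 in the non-transgenic cholesterol library, against 12.5 on chow, a diet difference of 0.65, so that the non-transgenic cholesterol library stood apart as the highest. HSD17B7, the ketone reductase of this step, was low and nearly equal, at 2.33, 2.33 and 2.44 FPKM. EBP, which moves a double bond in the sterol ring, stood at 19.1, 15.0 and 17.6 FPKM, and SC5D, which adds another, at 6.64, 8.87 and 10.02 FPKM. Their diet differences of -0.21 and -0.16 were small.

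**Figure D3:**
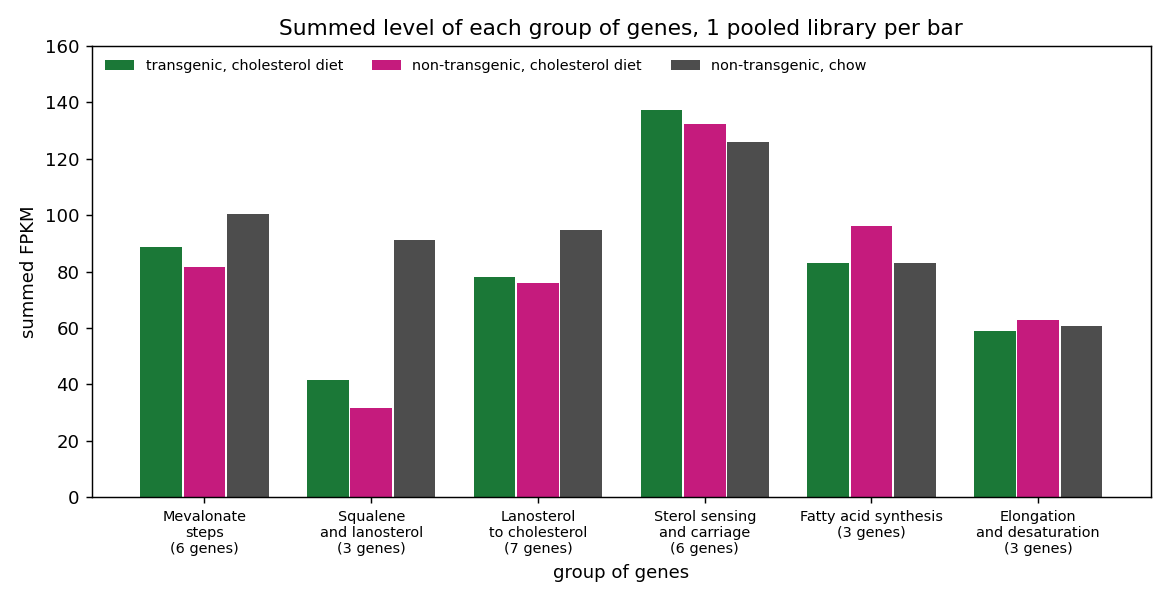
Summed FPKM (axis from 0) of the genes in each group for the transgenic cholesterol, the non-transgenic cholesterol and the chow library, 1 pooled library per bar with no error. The squalene and lanosterol group has the widest gap, at 41.5, 31.6 and 91.1 FPKM, most of it from FDFT1. The sum of sterol sensing and carriage is nearly level at 137, 132 and 126 FPKM, although within it SREBF1 and STARD4 are higher and SREBF2 is lower on the diet.

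The SREBP genes themselves moved apart on the diet. SREBF1 (ENSOCUG00000024966, scaffold GL019105, 8995 to 25073) stood at 35.4 FPKM in the transgenic cholesterol library, 31.9 in the non-transgenic cholesterol library, against 12.9 on chow, a diet difference of 1.24 and a ratio of 2.47. SREBF2 (ENSOCUG00000003178, scaffold GL018734, 656163 to 719318) stood at 28.4, 22.4 and 39.4 FPKM in the same order, a difference of -0.79 and a ratio of 0.568. The order of the pair was thus turned round, with SREBF1 at 1.25 times SREBF2 in the transgenic cholesterol library and 1.42 times in the non-transgenic cholesterol library, against 0.328 times on chow. The row of SREBF1 does not separate its isoforms, which start from different promoters.

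The proteins that hold the SREBPs in the endoplasmic reticulum differed little between libraries. SCAP, the escort and sterol sensor, stood at 31.2, 29.1 and 33.9 FPKM in the transgenic cholesterol, the non-transgenic cholesterol and the chow library (diet difference -0.21), and its span overlaps that of PTPN23. INSIG1, the retention protein whose gene is itself an SREBP target, stood at 4.27, 5.08 and 5.33 FPKM (-0.06). INSIG2, its paralogue, was the more abundant at 23.2, 26.5 and 29.2 FPKM (-0.13). INSIG2 stood at 5.44, 5.22 and 5.48 times INSIG1 in these libraries, which is nearly constant.

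STARD4, a soluble carrier that moves cholesterol between membranes (ENSOCUG00000006422, scaffold GL018744, 2105424 to 2121903), had the highest diet difference of the set. It stood at 15.0 FPKM in the transgenic cholesterol library and 17.5 in the non-transgenic cholesterol library, against 5.46 on chow. The diet difference was 1.52, a ratio of 3.20, and 89.7% of all genes tested had a lower difference. STARD4 is known as an SREBP target, and in these libraries it went the other way from FDFT1, LSS and HMGCS1, which are also known SREBP targets. It was not alone in its direction. Of the 28 genes, 7 stood above 0 on the diet, among them NSDHL (0.65), FASN (0.56), IDI1 (0.34) and FADS2 (0.33), and 21 below 0. In the transgenic cholesterol library against chow, NSDHL (0.10), FASN (0.07), FADS2 (0.10) and IDI1 (-0.20) were close to level. There STARD4 (1.31), SREBF1 (1.39) and GGPS1 (0.84) were still higher.

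The first enzymes of fatty acid synthesis were nearly level between the libraries. ACLY, which makes cytosolic acetyl-CoA from citrate, stood at 37.6 FPKM in the transgenic cholesterol library, 36.1 in the non-transgenic cholesterol library, against 39.3 on chow. ACACA, the carboxylase that makes malonyl-CoA, stood at 9.73, 9.51 and 10.02 FPKM. Their diet differences were -0.12 and -0.07, while SREBF1, the factor known to drive them, was 2.47 times its chow level. FASN, fatty acid synthase, stood at 35.6, 50.5 and 33.9 FPKM (diet difference 0.56), highest in the non-transgenic cholesterol library. The FASN row covers only 436 bp of an unplaced contig, so its value rests on a fragment of the gene.

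The enzymes that lengthen and desaturate fatty acids were mixed. ELOVL6, the elongase of saturated fatty acids (chromosome 15, 39264089 to 39389620), stood at 1.81 FPKM in the transgenic cholesterol library, 3.52 in the non-transgenic cholesterol library, against 4.38 on chow (diet difference -0.25). FADS1 and FADS2, the front-end desaturases of polyunsaturated fatty acids, lie on the same scaffold, GL018717 (2996915 to 3008786 and 2874101 to 2906618). FADS1 stood at 22.4, 18.7 and 24.1 FPKM (-0.35) and FADS2 at 34.7, 40.8 and 32.2 FPKM (0.33). FADS2 was at 1.55 times FADS1 in the transgenic cholesterol library and 2.18 times in the non-transgenic cholesterol library, against 1.34 times on chow. By group, the 15 cholesterol enzymes (those of the mevalonate steps other than GGPS1, and all later steps) summed to 185 FPKM in the transgenic cholesterol library and 172 in the non-transgenic cholesterol library, against 273 on chow, and the 6 fatty acid enzymes to 142, 159 and 144 FPKM.

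Between the genotypes on the cholesterol diet, no gene of the set reached 2-fold. None of the 28 was at least 2-fold lower in the transgenic library (2.10% of all genes were) and none at least 2-fold higher (1.70% of all genes). Below 0 stood 10 of the 28, against 51.7% of all genes, and the median of the 28 was 0.06, against -0.01 over all genes. Of the 28 differences, 27 were smaller than 1.5-fold.

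**Figure D4:**
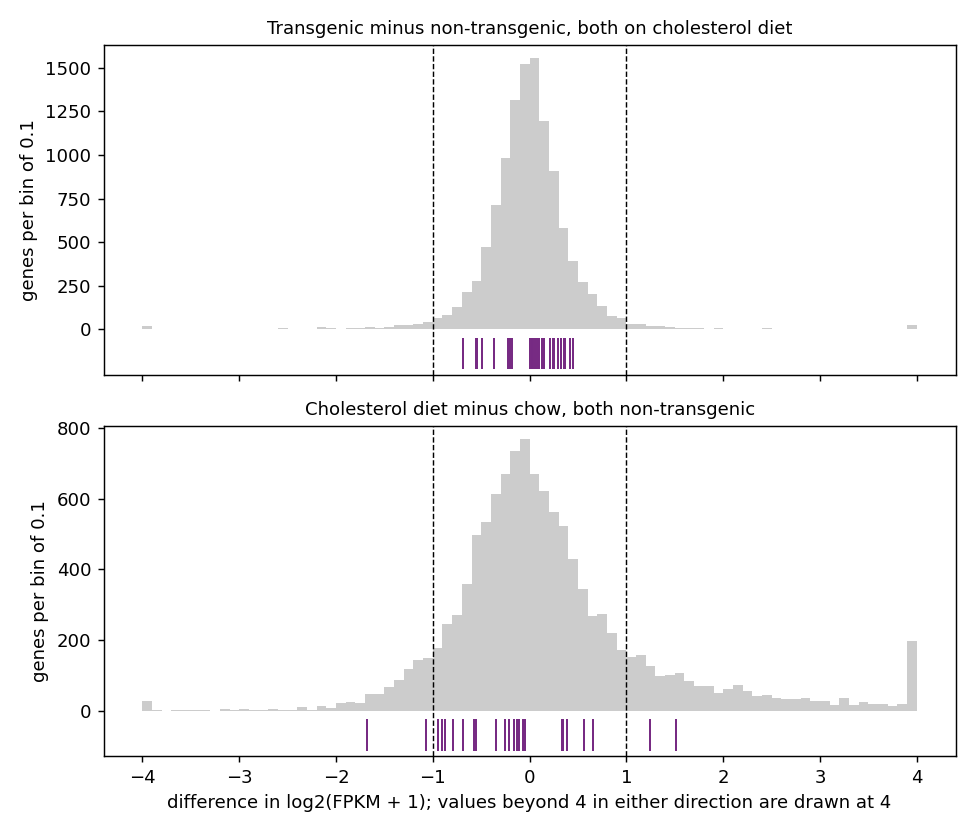
Number of genes per bin of 0.1 in the difference in log2(FPKM + 1) over all 11597 genes that passed the filter, for transgenic minus non-transgenic (top) and cholesterol diet minus chow (bottom), with the 28 genes as ticks under each histogram and dashed lines at 2-fold. In the top panel every tick lies between the lines, and in the bottom panel 2 ticks lie beyond each line.

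The 15 cholesterol enzymes had a median genotype difference of 0.13, with 11 above 0. FDFT1 (0.41), LSS (0.37) and TM7SF2 (0.35) had the highest values among them, and GGPS1, outside the sterol branch, was at 0.45. IDI1 (-0.54), NSDHL (-0.55) and SC5D (-0.37) were lower in the transgenic library, and HSD17B7 was equal to 2 decimals. SREBF2 was slightly higher (0.33) and SREBF1 less so (0.15). INSIG1 (-0.21), INSIG2 (-0.18) and STARD4 (-0.21) were slightly lower. Among the fatty acid enzymes, ELOVL6 had the widest genotype difference of all 28 at -0.69, a ratio of 0.514 at under 4 FPKM in both libraries. FASN was at -0.49, FADS2 at -0.23, FADS1 at 0.25, ACLY at 0.05 and ACACA at 0.03.

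Both comparisons above use the non-transgenic cholesterol library, and any chance deviation of it enters them with opposite signs. Set directly against chow, the transgenic cholesterol library had 1 of the 28 genes at least 2-fold lower (FDFT1, -1.26), where 2.53% of all genes were, and 2 at least 2-fold higher (SREBF1, 1.39, and STARD4, 1.31), where 12.6% of all genes were. The plain ratios of these 3 genes were 0.407, 2.74 and 2.75. Below 0 stood 20 of the 28, against 49.1% of all genes, with a median of -0.16. ELOVL6 (-0.94), HMGCS1 (-0.74), LSS (-0.71) and SQLE (-0.66) were lower by less than 2-fold in log2(FPKM + 1), and GGPS1 was higher at 0.84. On plain FPKM the ratio of ELOVL6 was 0.413, past 2-fold, at 1.81 against 4.38 FPKM. This comparison uses the chow library again, so it does not repeat the diet comparison independently.

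Other genes of sterol and lipid synthesis and handling were taken from a list of 51 names, which matched 46 rows, of which 42 passed the filter. On the diet 1 of these 42 was lower by 2-fold or more (6.99% of all genes were) and 5 were higher by that much (15.9% of all genes), with a median of 0.14.

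The 5 higher genes handle sterol and fatty acid after synthesis or uptake, or process the SREBPs. SOAT1, which esterifies cholesterol for storage, stood at 28.3 FPKM in the transgenic cholesterol library and 38.8 in the non-transgenic cholesterol library, against 7.94 on chow (diet difference 2.15). NPC1, the exporter of cholesterol from lysosomes, stood at 49.5, 57.1 and 24.3 FPKM (1.20), and ELOVL5, an elongase of polyunsaturated fatty acids, at 60.5, 63.8 and 26.4 FPKM (1.24). HSD17B12, a reductase of fatty acid elongation, stood at 120, 131 and 62.2 FPKM (1.06). All of them were lowest on chow. MBTPS2, a protease that releases the SREBPs, stood at 8.97, 12.1 and 5.24 FPKM (1.07), while MBTPS1, the protease that cuts before it, stood at 31.7, 37.8 and 43.0 FPKM (-0.18). Between the genotypes, none of the 42 reached 2-fold in either direction.

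Genes of the isoprenoid branches that do not lead to sterol, grouped after their values were seen, were not lower on the diet. GGPS1, PDSS1 and PDSS2 (the side chain of coenzyme Q), DHDDS and NUS1 (dolichol) and FNTA and FNTB (protein farnesylation) summed to 162 FPKM in the transgenic cholesterol library and 154 in the non-transgenic cholesterol library, against 133 on chow. Their median diet difference was 0.36, from -0.01 (FNTA) to 0.54 (PDSS1). The 10 measured genes of the sterol branch, from FDFT1 to SC5D, summed to 120, 108 and 186 FPKM in the same order, with a median of -0.62. FDFT1 alone holds most of the gap in these sums.

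The makeup of the tissue differed between the libraries along with these genes. Of 18 macrophage markers that passed the filter, 17 were higher by 2-fold or more on the diet, where 15.9% of all genes were, and the summed level of the 19 marker rows was 4385 FPKM in the transgenic cholesterol library and 4580 in the non-transgenic cholesterol library, against 99.4 on chow, where MARCO was listed at 0. Of 13 contractile smooth muscle markers 12 were lower by that much, where 6.99% of all genes were, with sums of 21558, 15308 and 37407 FPKM in the same order. None of the 13 was listed at 0 in any library, as the label of the tissue has it. In bulk tissue, fewer cells of a type and less RNA per cell cannot be told apart. The ratio of sums on the diet was 0.409 for the contractile markers and 0.630 for the 15 cholesterol enzymes. Cell cycle markers summed to 159, 254 and 58.5 FPKM. Adipocyte marker rows summed to 58.8, 52.3 and 54.5 FPKM over 11 rows, with UCP1 listed at 0 in the transgenic cholesterol and the chow library and CIDEC in the non-transgenic cholesterol library. Endothelial markers summed to 241, 198 and 148 FPKM, Schwann cell markers to 163, 150 and 196 FPKM, and adventitial fibroblast markers to 1175, 816 and 1277 FPKM. In the non-transgenic cholesterol library S100B and PI16, of these last lists, were listed at 0. PI16 stood at 298 FPKM in the transgenic cholesterol library and 411 on chow, so this row alone holds most of the gap in the fibroblast sums. The part of these shifts in the values of the synthesis genes was not tested.

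Genes of LXR signalling, a known input to SREBF1, were mostly higher on the diet. Whether LXR had a part in the SREBF1 difference was not tested. Of 8 measured genes 6 were at least 2-fold higher, where 15.9% of all genes were, and none was 2-fold lower, where 6.99% were. Their median was 2.30, and their summed level was 948 FPKM in the transgenic cholesterol library and 1021 in the non-transgenic cholesterol library, against 268 on chow. NR1H3, the LXR form abundant in macrophages, stood at 58.9, 52.1 and 9.25 FPKM, and NR1H2, the form found in most tissues, at 34.9, 33.0 and 41.0 FPKM. Whether SREBF1 was higher in macrophages or in smooth muscle cannot be told apart in these pools.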

How the data were processed

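Aortic media RNA was pooled from 5 rabbits per library and enriched for polyadenylated RNA, per the labels' protocols. The deposited values are FPKM made by the authors, per the file headers. The build was OryCun2.0, as the submitters' processing notes name it. How reads were aligned, quantified and scaled is not given in the sources used. Coordinates are those of the deposited annotation. The table's other 2 sheets were not used, since their titles do not name the libraries compared.

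Libraries were matched to groups by titles and descriptions. Genes with a mean FPKM of 1 or more (11597 rabbit genes) were compared between pairs of libraries as differences in log2(FPKM + 1), and counted at 2-fold. With 1 library per group there was no test. The arithmetic was checked on simulated data, the chow values with planted differences and no noise (Python 3.11.15, pandas 2.3.3). That check cannot speak to noise between libraries. The genes and lists were chosen with earlier results of these data known. All 28 genes of the set are named, and of the other pathway genes those at least 2-fold different in the diet or the genotype comparison; further genes were named after their values were seen. Of the other pathway genes that the rule takes, 1 is not reported here. Alternatives were the pseudocount, the filter, 4 scalings, a 1.5-fold limit and leaving out genes listed at 0. No sequences are shown.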

Additional observations from a re-analysis of the deposited data

How the results depend on the processing

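No paired analysis was possible because each group has 1 library. The diet difference of FDFT1 (-1.75 to -1.51), SREBF1 (1.04 to 1.42) and STARD4 (1.104 to 1.703) stayed past 2-fold under the 7 alternatives that can change the value of a gene (pseudocounts and scalings), and that of LSS (-1.16 to -0.84) under 5 of them. The number of the 28 genes at least 2-fold lower on the diet was 2 as reported and 7 at 1.5-fold. It was 4 with a pseudocount of 0.1 or with none (an alternative added after seeing the data), and 1 with a pseudocount of 5. With the upper quartile of genes above 0 set equal it was 3, and 1 after rescaling without genes encoded in mitochondrial DNA. For the transgenic library against chow that number was 1 as reported, 2 with a pseudocount of 0.1 or none, 0 after the same rescaling and 5 at 1.5-fold, and the number at least 2-fold higher was 2 as reported, 1 with a pseudocount of 5, and 3 at 1.5-fold or after either rescaling to a common total, which brought GGPS1 past 2-fold (1.03 and 1.12). On the diet the number higher was 3 at 1.5-fold and 2 under the other alternatives. Between genotypes, 1 gene (ELOVL6) was lower at 1.5-fold, and none at 2-fold under any alternative. Rescaling to a common total moved the median genotype difference of 0.06 to 0.19, or to 0.17 without mitochondrially encoded genes. The median against chow in the transgenic library changed sign, to 0.012 and 0.098, and the median diet difference changed sign, to 0.0085 without mitochondrially encoded genes. These scalings raise all genes alike: relative to the median of all genes, the members' median stayed between -0.13 and -0.20 for the diet under all alternatives. Depth limits SQLE, HSD17B7, INSIG1 and ELOVL6 most, being low, and no counting interval could be made without read counts.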
